A study of Mus musculus with 8 samples.

Results

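Glycolytic enzymes were followed in dendritic cells (DCs) of the popliteal lymph node through 10 genes, named by symbol: Hk3, Gpi1, Pfkl, Aldoa, Tpi1, Gapdh, Pgk1, Eno1, Pkm and Ldha. They were chosen with earlier results of these data known. Of these, 9 were rows of the deposited table of 10412 genes and Eno1 was not among its rows. Gapdh, with 1 to 8 unique molecular identifiers (UMIs) per library, did not pass the filter on low counts, so 8 of the 10 were tested among 8616 genes. Activated cells held more of these transcripts than resting cells. 7 of the 8 tested enzymes rose, Hk3 from very low counts and the others with mean log2 fold changes of 0.52 to 1.30, and 0 fell. Of all genes tested, 16.3% were called higher and 13.4% lower. No difference between genotypes passed the test for any of the 8, where only 0.162% to 0.209% of all genes were called.

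Glycolysis splits glucose into pyruvate in the cytosol. Its first steps spend ATP to phosphorylate the sugar and split it into triose phosphates, and its later steps return ATP and NADH, while lactate dehydrogenase reoxidises NADH by turning pyruvate into lactate. Activated DCs are known for a rapid increase in glycolytic flux that supplies citrate and NADPH for membrane and cytokine synthesis.

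RNA was measured by bulk MARS-seq, which sequences the 3′ ends of polyadenylated transcripts and counts each captured molecule once by its UMI. The 4 groups of 2 libraries were DKO activated, DKO resting, WT activated and WT resting. All cells came from popliteal lymph nodes of C57BL/6 chimeric mice aged 16 weeks, 8 weeks after the procedure that the labels abbreviate as BMT, with CD45, CD11c and MHC-II as sorting markers. WT libraries are from chimeras labelled WT/WT and DKO libraries from chimeras labelled ICAM-1/2 DKO/WT. Activated means that 10 µg of a monoclonal antibody against CD40, a TNF receptor family member on antigen-presenting cells, had been injected into the footpad, and resting means no treatment. The labels do not spell out donor and host, the share of host cells left, or whether animals were pooled. ICAM-1 and ICAM-2 are adhesion molecules that bind LFA-1 on T cells, and the design asks what activation changes and whether their absence alters that change.

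Libraries held 401984 to 1294777 UMIs, and the shallowest were DKO resting 1 and DKO activated 2. Icam1 was low in both DKO groups, at 35.8 to 38.5 CPM (UMI counts scaled to a common depth) in DKO activated against 407 to 432 CPM in WT activated libraries, and at 9.49 to 13.6 CPM in DKO resting against 123 to 168 CPM in WT resting libraries. Icam2 was not low in DKO, with 93.1 to 110.5 CPM in DKO activated against 66.5 to 94.1 CPM in WT activated libraries and 135 to 230.0 CPM in DKO resting against 199.5 to 219 CPM in WT resting libraries, and the deleted part of the gene is not stated in the labels. The sorted cells carried high MHC-II transcripts, with Cd74 at 5331 to 17090 UMIs per library. Several defining transcripts of classical DCs were scarce: Itgax, which encodes CD11c, had 11 to 43 UMIs, Flt3 had 3 to 44, Zbtb46 had 0 to 8, and Clec9a was not in the table. Some other genes of the classical DC list used below were counted better. The mean log2 CPM was 9.48 for Irf8, 7.66 for Ccr7 and 7.19 for Fscn1, against 4.81 for Itgax and 4.32 for Flt3. The B cell gene Ms4a1 had 115 to 662 UMIs per library, more than Itgax in each, so these were not libraries of classical DC transcripts alone. In bulk RNA of this kind, fewer cells of a type and less RNA per cell cannot be told apart.

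Promoter sequences are shown for the 3 tested enzymes with the largest mean log2 fold changes, Hk3 (3.73), Tpi1 (1.30) and Ldha (1.01). Enzymes that rose less or were not called are not shown. Ldha was also the enzyme closest to the mean profile described below, and Tpi1 had no match to the motif. Each sequence is the RefSeq stretch (GRCm38.p6) from 250 bases before to 50 bases after an annotated start. It has 300 bases, written 5′ to 3′ on the gene's strand. Hk3 lies at chr13:55021336-55021635 (minus strand), Ldha at chr7:46845554-46845853 (plus strand) and Tpi1 at chr6:124814109-124814408 (minus strand). Capitals mark ACGTG on either strand (CACGT on the other), the core letters of the element bound by hypoxia-inducible factors, which overlap the E-box CACGTG bound by MYC and ChREBP.
Hk3: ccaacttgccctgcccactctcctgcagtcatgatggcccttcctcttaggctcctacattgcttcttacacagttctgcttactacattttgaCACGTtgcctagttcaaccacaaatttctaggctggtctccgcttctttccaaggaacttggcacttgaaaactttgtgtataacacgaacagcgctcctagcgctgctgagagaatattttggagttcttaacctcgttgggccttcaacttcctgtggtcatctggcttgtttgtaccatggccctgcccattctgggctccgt
Ldha: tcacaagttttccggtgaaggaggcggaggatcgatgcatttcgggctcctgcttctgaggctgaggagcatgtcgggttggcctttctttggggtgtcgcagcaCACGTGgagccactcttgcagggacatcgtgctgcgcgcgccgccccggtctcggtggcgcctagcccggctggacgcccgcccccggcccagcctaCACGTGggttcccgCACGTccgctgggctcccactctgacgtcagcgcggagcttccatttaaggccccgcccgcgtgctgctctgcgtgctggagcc
Tpi1: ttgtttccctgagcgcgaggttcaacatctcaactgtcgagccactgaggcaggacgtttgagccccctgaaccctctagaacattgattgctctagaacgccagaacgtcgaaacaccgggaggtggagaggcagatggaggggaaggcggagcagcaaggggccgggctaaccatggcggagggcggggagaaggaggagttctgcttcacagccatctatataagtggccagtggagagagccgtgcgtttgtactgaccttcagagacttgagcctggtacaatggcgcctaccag
The Ldha stretch held 5 matches, at −145, −144, −48, −47 and −34 from the start, of which the first 4 are both strands of 2 copies of CACGTG. The RefSeq table lists 2 promoters for Ldha, and the other held 0 matches. The last 50 bases of that other stretch, after its start, were found in GENCODE M21 transcripts of Ldha, while those of the printed stretch were not, so which start these cells use is not known here. Hk3 held a single match at −156 and Tpi1 held none. All 10 enzymes matched the RefSeq table, with 16 promoters between them, and 7 of the 16 (43.8%), belonging to 6 genes, held ACGTG on either strand. The same letters stood in 26.4% of 8510 promoters of genes tested here and in 19.6% of all 32851 promoters. Aldoa contributed 2 of the 7, which overlap each other. A second motif, GGGCGG on either strand, the letters of an SP1 site, was in 62.5% of the enzymes' promoters and in 63.7% of those of genes tested. These are matches of letters only, and binding was not measured.

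Hexokinase 3, encoded by Hk3 (GRCm38 chromosome 13, 55005985 to 55021385, minus strand), is a hexokinase found mainly in myeloid cells and catalyses the entry of glucose into the pathway. Hk3 had 25 and 20 UMIs in DKO activated libraries against 0 and 1 in DKO resting libraries, and 29 and 14 UMIs in WT activated libraries against 7 and 6 in WT resting libraries. On the scaled level this was 32.1 and 47.7 CPM against 0 and 1.24 CPM in DKO, and 37.8 and 17.1 CPM against 4.92 and 8.03 CPM in WT. Every activated library stood above every resting one, and DKO resting libraries were the lowest of all. The count of 0 in DKO resting 1 allows up to 7.11 CPM (3 UMIs on the same scale). Over summed counts, activated cells had 46.2 times as much Hk3 as resting cells in DKO (45 against 1 UMI, exact 95% interval 7.88 to 1865) and 4.53 times as much in WT (43 against 13 UMIs, 2.39 to 9.18). These intervals cover counting error only. The fitted mean log2 fold change was 3.73 ± 0.56 (SE), with an edgeR adjusted p of 5.41e-06. At counts this low the fitted size depends on the prior count, so it serves here for its test and direction.

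Glucose 6-phosphate isomerase, encoded by Gpi1 (chromosome 7, 34201330 to 34230336, minus strand), turns glucose 6-phosphate into fructose 6-phosphate. Gpi1 stood at 388 and 513 CPM in DKO activated against 296 and 327 CPM in DKO resting libraries, and at 421 and 386 CPM in WT activated against 264 and 297 CPM in WT resting libraries. The states did not overlap in either genotype, and the gap was the narrowest of the enzymes that rose, at a log2 fold change of 0.52 ± 0.14 (edgeR adjusted p 0.00551). That call was lost with library totals in place of TMM scaling (0.31, adjusted p 0.0734) and without both of the shallowest libraries (0.37, adjusted p 0.0582).

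Pfkl (chromosome 10, 77986947 to 78010083, minus strand) encodes the liver type subunit of phosphofructokinase, the committed and most regulated step. Pfkl stood at 60.4 and 57.3 CPM in DKO activated against 30.8 and 39.6 CPM in DKO resting libraries, and at 78.2 and 79.5 CPM in WT activated against 36.5 and 52.2 CPM in WT resting libraries. The replicates of the activated groups lay close together, and all 4 were above all 4 resting libraries. Pfkl rose by a log2 fold change of 0.79 ± 0.23 (edgeR adjusted p 0.0104). The call was lost with library totals (0.58, adjusted p 0.0592) and without WT resting 1, the deepest library (0.63, adjusted p 0.0908).

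Aldolase A, encoded by Aldoa (chromosome 7, 126795234 to 126800751, minus strand), splits fructose 1,6-bisphosphate, and its transcript was among the most counted of the 9. Aldoa stood at 926 and 1109.6 CPM in DKO activated against 443 and 547 CPM in DKO resting libraries. In WT it stood at 834 and 864 CPM in activated against 601 and 621 CPM in resting libraries. The separation was wider in DKO, where the resting libraries were the lowest and the activated libraries the highest of the 8. Aldoa rose by 0.75 ± 0.13 on the log2 scale (edgeR adjusted p 4.32e-05). GENCODE M21 lists 2 neighbouring genes of this symbol, of which the coordinates are those of the first, and the table names its row by symbol alone.

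Triosephosphate isomerase, encoded by Tpi1 (chromosome 6, 124810586 to 124814296, minus strand), interconverts the triose phosphates that aldolase releases. Tpi1 had 181 and 219.5 CPM in DKO activated against 85.4 and 84.2 CPM in DKO resting libraries, and 189 and 188 CPM in WT activated against 72.4 and 72.2 CPM in WT resting libraries. Resting libraries were tightly grouped and each activated library held more than 2 times the highest of them. Tpi1 had the largest increase of the well-counted enzymes, at a log2 fold change of 1.30 ± 0.17 (edgeR adjusted p 5.01e-07), which is 2.47-fold.

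**Figure D1:**
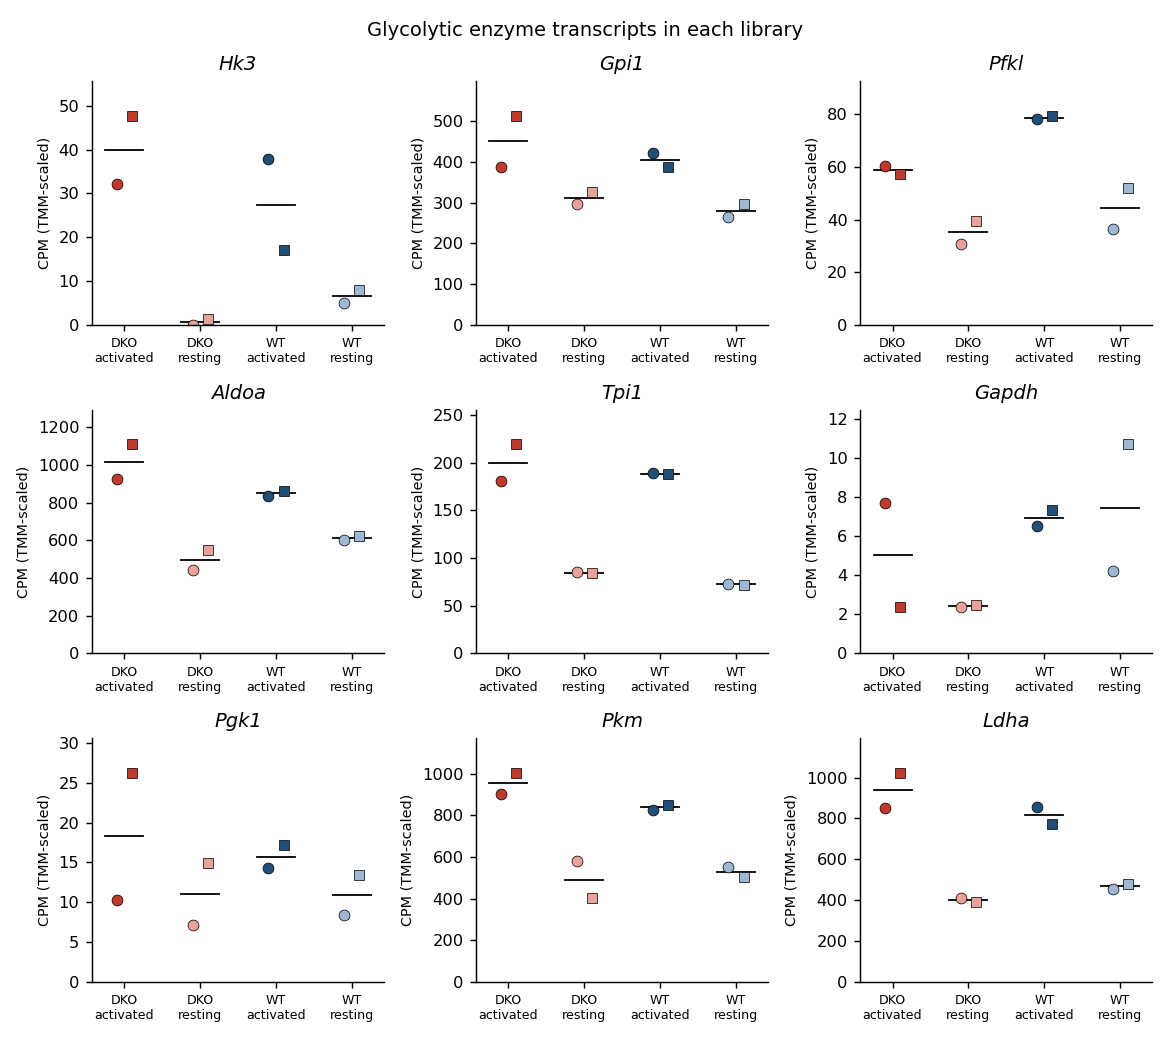
TMM-scaled CPM (vertical axis, linear, starting at 0) of the 9 glycolytic enzymes in the table, in each library of the 4 groups along the horizontal axis. Circles are replicate 1, squares replicate 2 and bars group means (n = 2 each). In Hk3, Gpi1, Pfkl, Aldoa, Tpi1, Pkm and Ldha every activated library lies above every resting library, while Gapdh and Pgk1 overlap.

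The triose phosphate steps that follow were thinly counted. Glyceraldehyde 3-phosphate dehydrogenase, encoded by Gapdh (chromosome 6, 125161715 to 125166467, minus strand), makes NADH, and Gapdh had 6 and 1 UMIs in DKO activated against 1 and 2 in DKO resting libraries, and 5 and 6 UMIs in WT activated against 6 and 8 in WT resting libraries. Gapdh was not tested, and its summed counts of 7 against 3 UMIs in DKO and 11 against 14 UMIs in WT gave depth-adjusted ratios of 2.40 (exact 95% interval 0.547 to 14.4) and 1.08 (0.442 to 2.55). Phosphoglycerate kinase, encoded by Pgk1 (chromosome X, 106187100 to 106203699, plus strand), makes the first ATP of the pathway, and Pgk1 had 8 and 11 UMIs in DKO activated against 3 and 12 in DKO resting libraries, and 11 and 14 UMIs in WT activated against 12 and 10 in WT resting libraries. Neither gene separated the states over all 8 libraries. The log2 difference of Pgk1 was 0.55 ± 0.47 with a 95% interval of −0.40 to 1.50 (edgeR adjusted p 0.407), so neither no change nor an increase like that of Ldha lay outside the interval.

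The low counts of Gapdh, a highly expressed gene in most cells, stood beside a property of its 3′ end. For each gene, 46 windows of 50 bases were taken over the last 500 bases of a single chosen GENCODE M21 transcript. Other 3′ ends of a gene were not examined. Of the windows of Gapdh, 89.1% also occurred in transcripts annotated to 132 other genes, of which 124 are pseudogenes. For Eno1, which encodes the main enolase, 73.9% of windows were shared, with 4 other genes, 3 of them pseudogenes. The share was 8.70% for Pgk1, 6.52% for Gpi1 and 0% for Hk3, Pfkl, Aldoa, Tpi1, Pkm and Ldha. Among 8314 tested genes, 90.0% shared no window and 2.59% shared 50% or more. Pgam1, the phosphoglycerate mutase gene, was also not a row of the table, and it shared 0% of its windows. The part of shared sequence in these low counts was not tested.

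Pyruvate kinase, encoded by Pkm (chromosome 9, 59656368 to 59679375, plus strand), makes the last ATP of the pathway together with pyruvate. Pkm stood at 905 and 1005 CPM in DKO activated against 579 and 404 CPM in DKO resting libraries, and at 828 and 849.7 CPM in WT activated against 552 and 506 CPM in WT resting libraries. The states did not overlap, and the spread between replicates was widest at rest in DKO. Pkm rose by 0.82 ± 0.13 on the log2 scale (edgeR adjusted p 2.30e-05). A 3′ count does not separate the M1 and M2 splice forms of this gene.

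Lactate dehydrogenase A, encoded by Ldha (chromosome 7, 46841475 to 46855627, plus strand), turns pyruvate into lactate. Ldha stood at 853 and 1024 CPM in DKO activated against 413 and 389.9 CPM in DKO resting libraries, and at 858 and 771 CPM in WT activated against 457 and 479 CPM in WT resting libraries. Resting libraries of both genotypes lay in a narrow band, and all activated libraries were above it. Ldha rose by 1.01 ± 0.13 on the log2 scale (edgeR adjusted p 4.55e-07), which is 2.02-fold.

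Seen as a whole, 7 of the 8 tested enzymes rose and 0 fell on activation over both genotypes, where 29.7% of all genes tested were called, 16.3% as higher. Their median log2 fold change was 0.80 against −0.01 over all genes. The members were chosen with earlier results of these data known, so these shares are context and not a test of the list. The same 7 separated all 4 activated from all 4 resting libraries, as did 14.9% of all genes in that direction. Within DKO, 5 of the 8 rose (of all genes 15.3% were called there, 9.02% as higher): Hk3, called here without a size because of its counts of 0 and 1 at rest, Ldha by 1.22, Tpi1 by 1.23, Aldoa by 1.03 and Pkm by 0.97 on the log2 scale. Within WT, 4 of the 8 rose (of all genes 14.4% were called, 8.44% as higher): Hk3 by 2.13, Tpi1 by 1.38, Ldha by 0.80 and Pkm by 0.66. Aldoa (0.48, edgeR adjusted p 0.0743), Gpi1 (0.53, adjusted p 0.0695) and Pfkl (0.86, adjusted p 0.0529) did not pass in WT. The WT count was 7 with limma-voom and 7 in a fit of the WT libraries alone, but 2 without WT resting 1 and 1 without WT activated 1, when Tpi1 alone was called. Whether the libraries of a group came from separate animals is not stated, and each p-value therefore rests on a spread between samples that may be technical.

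Summed over the 9 enzymes, 0.326% and 0.356% of UMIs in DKO activated libraries came from them, against 0.195% and 0.192% in DKO resting libraries. In WT they made up 0.305% and 0.284% of UMIs in activated libraries, against 0.220% and 0.216% in resting libraries. Each activated library was above each resting library. On the TMM scale the sum averaged 3684 ± 453 CPM in DKO activated against 1833 ± 33.3 CPM in DKO resting libraries, and 3224 ± 60.3 CPM in WT activated against 2029.9 ± 41.1 CPM in WT resting libraries (SD, n = 2 each). These are ratios of 2.01 in DKO and 1.59 in WT, and 1.79 over both. Aldoa, Pkm and Ldha carried most of the sum.

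Scaling bears on these sizes. With library totals in place of TMM, the median of all genes moved to −0.22 on the log2 scale and the calls over both genotypes split into 908 higher and 1889 lower, against 1402 higher and 1154 lower with TMM. The summed ratio was then 1.54, Hk3, Tpi1, Ldha, Pkm and Aldoa kept their calls, and each of the 7 enzymes kept its direction.

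Transcripts of macrophages moved with activation too. The 20 monocyte and macrophage markers in the table, of 24 listed, summed to 13780 to 18256 CPM in DKO activated against 3635 to 3720 CPM in DKO resting libraries, and to 6330 to 7172 CPM in WT activated against 2856 to 3250 CPM in WT resting libraries. The mean marker sum was higher in DKO than in WT in both states. The mean enzyme sum was higher in DKO in activated and lower in DKO in resting libraries. All 18 tested markers rose over both genotypes, with Lyz2 at 6477 to 7855 CPM in DKO activated against 930 to 1130 CPM in DKO resting libraries. For this and the lists that follow, 16.3% of all genes tested were called higher and 13.4% lower. Cd14, Mrc1, Cd163 and Mertk were not in the table, Adgre1 had 0 to 8 UMIs, and no marker in the table was at 0 in both libraries of a group. Summed classical DC markers overlapped between states, at 35821 to 37545 CPM in activated and 35467 to 43067 CPM in resting libraries. Most of that sum was H2-Ab1, H2-Aa and Cd74, which B cells and macrophages also express, and of the 14 tested markers 3 rose (Irf8, Sirpa and Fscn1) and 3 fell (Ccr7 with −1.11, Dpp4 with −0.96 and Ciita with −0.49 on the log2 scale). B cell markers, 16 of 18 in the table, summed to 10048 to 12191 CPM in activated and 12854 to 15781 CPM in resting libraries, and 9 of 15 tested fell while 3 rose. T cell markers summed to 1417 to 2285 CPM in activated and 2046 to 3499.7 CPM in resting libraries, and 10 of 17 tested fell while 1 rose. NK and ILC markers summed to 438 to 1005 CPM in activated and 399.8 to 577 CPM in resting libraries. Of 13 tested, 4 rose while 0 fell, near the 29.7% of all genes called in either direction. Granulocyte markers, 3 of 12 in the table, summed to 54.0 and 119 CPM in DKO activated against 7.11 and 21.04 CPM in DKO resting libraries. In WT they overlapped between states. The single granulocyte marker tested, Cxcr2, rose by 1.61 ± 0.46 (edgeR adjusted p 0.00818), and S100a9 had 0 to 22 UMIs. The part of these cell types in the rise of the enzymes was not tested.

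**Figure D2:**
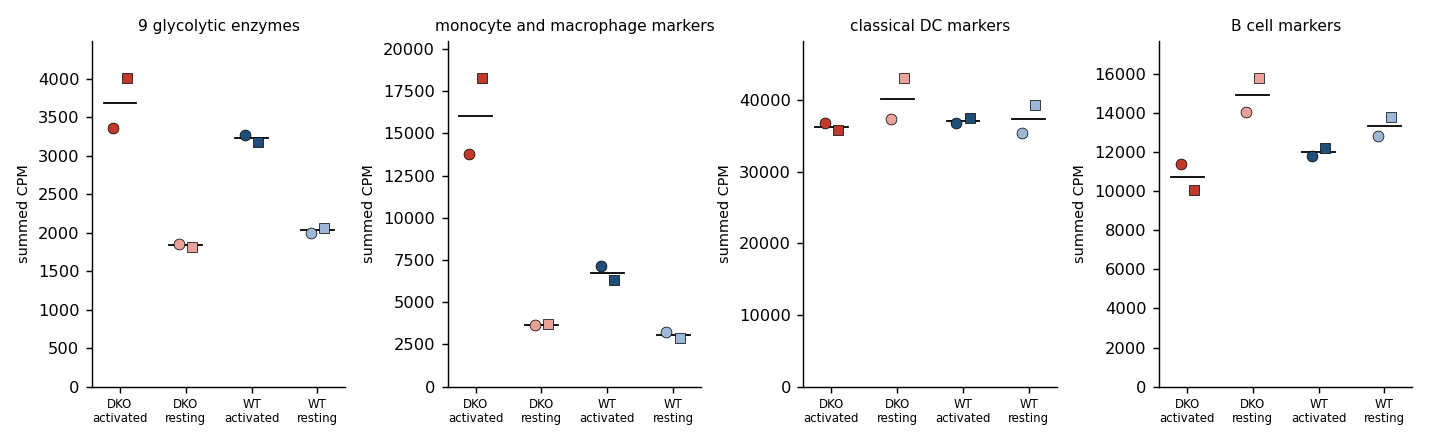
Summed TMM-scaled CPM (vertical axes, linear, starting at 0) of the 9 enzymes, of monocyte and macrophage markers, of classical DC markers and of B cell markers in each library of the 4 groups. Circles are replicate 1, squares replicate 2 and bars group means (n = 2). The enzymes and the macrophage markers are higher in every activated library, the macrophage markers most in DKO, while classical DC markers overlap.

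Where a step has several isoenzymes, the share of the family's UMIs held by the followed enzyme was compared over 4 activated and 4 resting libraries. A transcript counts once whatever its length in this assay, but capture and mapping of 3′ ends differ between genes, so these are shares of UMIs. Hk3 held 25 of 76 and 20 of 54 hexokinase UMIs (Hk1 plus Hk3) in DKO activated against 0 of 17 and 1 of 46 in DKO resting libraries. In WT it held 29 of 76 and 14 of 54 in activated against 7 of 91 and 6 of 51 in resting libraries. The share averaged 33.5 ± 5.54% in activated against 5.41 ± 5.33% in resting cells (SD, n = 4 each), a gap of 28.1 percentage points. The groups did not overlap, and the exact two-sided permutation test gave p = 0.0286, the smallest this design allows, or 0.114 adjusted over 4 families. Hk3 had been chosen with earlier results of these data known, so this p is not independent support.

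The other families shifted less. Pfkl held 36.7% and 44.4% of phosphofructokinase UMIs (Pfkl plus Pfkp) in DKO activated against 29.5% and 26.0% in DKO resting libraries, and 42.6% and 41.7% in WT activated against 26.0% and 37.9% in WT resting libraries. The exact permutation p was 0.0571 (adjusted 0.114), with 1 resting library above the lowest activated one. Aldoa held nearly all aldolase UMIs (with Aldoc), 96.5 ± 1.09% in activated and 97.1 ± 1.56% in resting cells (n = 4 each, exact permutation p = 0.543). Ldha held 99.4 ± 0.875% of lactate dehydrogenase UMIs (with Ldhb) in activated and 97.8 ± 1.61% in resting cells (n = 4 each, exact permutation p = 0.171, adjusted 0.229). These muscle-type enzymes held nearly all UMIs of both families in both states.

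**Figure D3:**
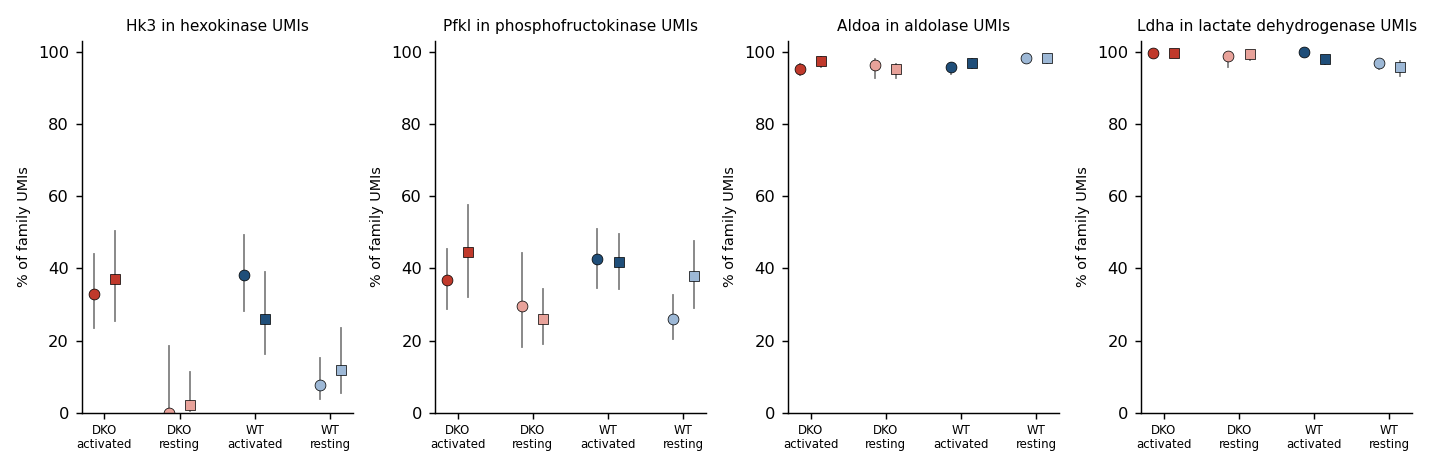
Share of a family's UMIs (percent, vertical axes from 0) held by Hk3 (of Hk1 plus Hk3), Pfkl (of Pfkl plus Pfkp), Aldoa (of Aldoa plus Aldoc) and Ldha (of Ldha plus Ldhb) in each library, with 95% Wilson intervals. Circles are replicate 1 and squares replicate 2. The Hk3 share is 25.9% to 38.2% in activated and 0% to 11.8% in resting libraries, and Aldoa and Ldha stay above 95% throughout.

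Between libraries labelled DKO and WT, 0 of the 8 enzymes were called as a mean over both states, where 0.209% of all genes were called by edgeR, and 0 in activated cells (0.174% of all genes) or resting cells (0.162%). DESeq2 and limma-voom also called 0 in each, and edgeR's unadjusted p was under 0.05 for 0, 0 and 1 of the 8, the single gene being Hk3 at rest. The mean log2 difference of DKO over WT was −0.01 for Ldha (95% interval −0.27 to 0.25), −0.02 for Aldoa (−0.28 to 0.24), 0.03 for Pkm (−0.24 to 0.30), 0.15 for Tpi1 (−0.19 to 0.50) and 0.15 for Gpi1 (−0.13 to 0.44). For each of these 5 genes both bounds of this mean were smaller in size than the gene's own mean log2 fold change with activation. The intervals of the mean were wider for Pfkl (−0.34, −0.81 to 0.14), for Pgk1 (0.13, −0.82 to 1.08) and for Hk3 (−1.10, −2.45 to 0.25). Within a state the intervals of the 5 genes were wider. The upper bounds for Gpi1, 0.55 in activated and 0.57 in resting cells, then exceeded its 0.52 with activation. Aldoa (0.26 in activated, −0.29 in resting cells), Ldha (0.20, −0.22) and Pkm (0.18, −0.12) had opposite signs, which the mean over states averages. Tpi1 and Gpi1 were above 0 in both states. DKO and WT libraries overlapped in each of the 9 enzymes.

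The response to activation was then compared between genotypes through the interaction. The enzymes with an unadjusted p under 0.05 were Hk3 and Aldoa, with edgeR p of 0.0186 and 0.0406 and an adjusted p of 0.997 for each. The log2 fold change of Aldoa differed by 0.55 (DKO minus WT), and that of Hk3 by 2.41 to 5.78 over the alternatives tried, a size that its low counts do not fix. 0 of the 8 enzymes and 0% of all genes were called, while 397 of 8616 genes had an unadjusted p under 0.05, and DESeq2 and limma-voom called 0 genes. The summed enzyme level stood higher in both DKO activated than in both WT activated libraries, and lower in both DKO resting than in both WT resting libraries. The sum of macrophage markers was higher in DKO than in WT libraries in both states. Of 18 tested markers, 3 were called higher in DKO over both states, where 0.209% of all genes were called in either direction. The part of macrophage transcripts in these enzyme values was not tested.

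**Figure D4:**
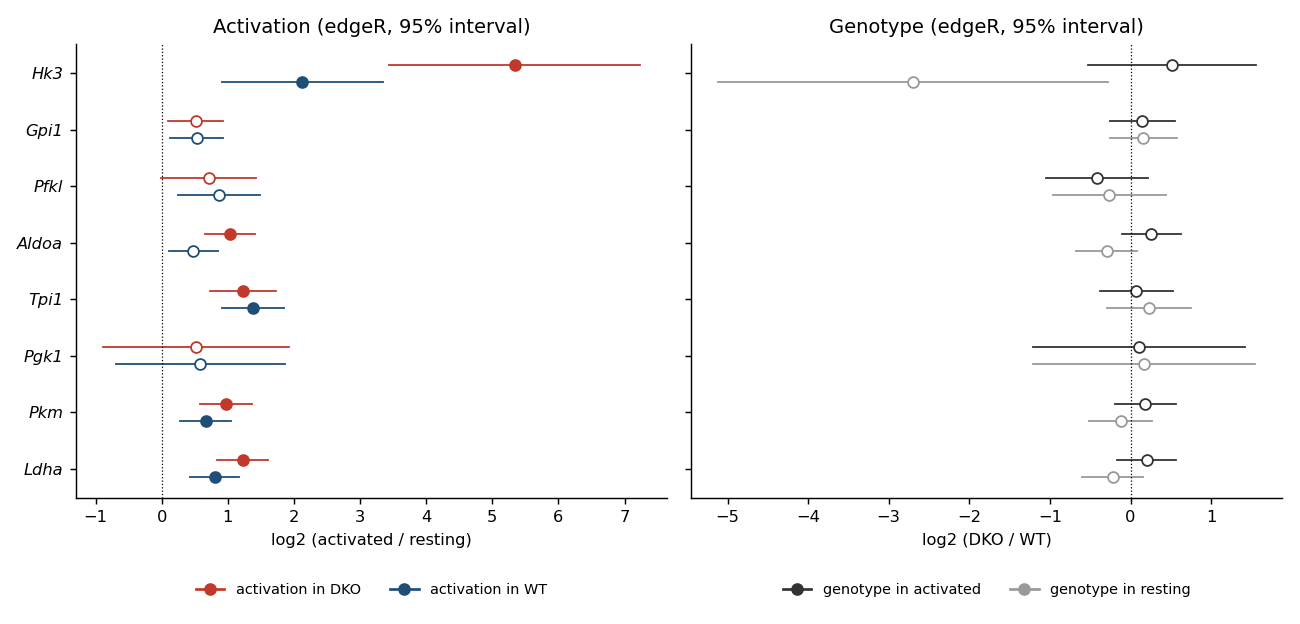
Log2 fold changes of the 8 tested enzymes with 95% intervals from edgeR. The left panel shows activated over resting within DKO (red) and WT (blue), and the right panel DKO over WT in activated (dark grey) and resting (light grey) cells, where filled points have an adjusted p under 0.05 and open points do not. All activation estimates lie above 0, and no genotype point is filled.

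In the authors' deposited table the increase of Ldha was 1.16 in DKO and 0.78 in WT, and that of Tpi1 was 1.10 in DKO and 1.28 in WT (log2). The authors' deposited table gives Hk3 as 2.21 in DKO (adjusted p 8.89e-05) and 1.30 in WT (adjusted p 0.0433). Hk3 estimates over the alternatives tried here were larger, 4.54 to 7.90 in DKO and 1.45 to 2.59 in WT. The low counts of Hk3 do not fix its size.

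Pathways around glycolysis were read from 10 lists, by the genes called over both genotypes. Of all genes tested, 16.3% were called higher and 13.4% lower, 29.7% in either direction. The counts of other isoenzymes (3 of 8), regulators (4 of 14) and HIF-1 targets (3 of 10) were near that share. The pentose phosphate pathway, which branches from glucose 6-phosphate and supplies NADPH and ribose, had 5 of its 8 genes rise and 0 fall, with a median log2 fold change of 0.82. Transketolase (Tkt) rose to 402 ± 32.3 CPM in DKO activated against 178 ± 20.3 CPM in DKO resting libraries, and to 378 ± 48.0 CPM in WT activated against 205 ± 38.1 CPM in WT resting libraries (SD, n = 2 each). Its log2 fold change was 1.03 ± 0.15 (edgeR adjusted p 3.72e-06). Of the oxidative branch, G6pdx, Pgls and Pgd also rose, while H6pd was not called, at −1.18 ± 0.56 (edgeR adjusted p 0.116). G6pdx, the first NADPH-making step, had 152 and 184 CPM in DKO activated against 68.8 and 69.3 CPM in DKO resting libraries, and 158 and 91.7 CPM in WT activated against 67.4 and 82.9 CPM in WT resting libraries (edgeR adjusted p 0.000208). The lactonase Pgls rose by 0.64 ± 0.14 and Pgd, the next NADPH-making step, by 1.07 ± 0.18 on the log2 scale (adjusted p 0.000574 and 2.89e-05). The fifth was the ribulose phosphate epimerase Rpe, at 1.13 ± 0.33. This list had 4 to 6 calls in each alternative tried.

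Transport and the entry of pyruvate into mitochondria come before and after the pathway. Of 8 transporters of glucose and lactate, 5 were tested, 0 rose and 1 fell: Slc2a3, the glucose transporter GLUT3, at 6.24 ± 2.08 CPM in DKO activated against 30.9 ± 3.51 CPM in DKO resting libraries, and 12.9 ± 13.1 CPM in WT activated against 24.8 ± 4.74 CPM in WT resting libraries. Its log2 fold change was −1.60 ± 0.44 (edgeR adjusted p 0.00624). Of the 4 tested genes that set fructose 2,6-bisphosphate, the activator of phosphofructokinase, 0 were called. Pfkfb3, the inducible kinase among them, was at 0.52 ± 0.23 (edgeR adjusted p 0.0850). Of 10 tested genes for pyruvate entry into mitochondria 0 were called, with a median log2 fold change of 0.32 against −0.01 over all genes, and Pdhb, a pyruvate dehydrogenase subunit, was at 0.06 ± 0.17 (adjusted p 0.815).

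Of 8 tested genes for other isoenzymes and steps of glycolysis, 1 rose and 2 fell. The brain-type aldolase Aldoc rose by 1.15 ± 0.34, while the ADP-dependent glucokinase Adpgk (−1.33 ± 0.31) and the muscle enolase Eno3 (−0.70 ± 0.21) fell (edgeR adjusted p 0.0100, 0.00130 and 0.0101). Hk1 (0.22, adjusted p 0.502) and Pfkp (0.05, adjusted p 0.891), the partners of Hk3 and Pfkl in the shares above, were not called. Enolase was represented by Eno2 and Eno3 without Eno1, and Eno3 stood at 65.1 ± 4.29 CPM in DKO activated against 85.7 ± 17.2 CPM in DKO resting libraries, and 48.0 ± 3.96 CPM in WT activated against 95.2 ± 5.42 CPM in WT resting libraries. Of the list, 8 of 20 genes were in the table, and Hk2 was not among them.

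The shuttles that carry NADH into mitochondria had 4 of 8 tested genes rise and 2 fall. Malate dehydrogenases rose, the cytosolic Mdh1 by 0.61 ± 0.14 and the mitochondrial Mdh2 by 0.44 ± 0.14 (edgeR adjusted p 0.00105 and 0.0157), and Got1, the cytosolic aspartate transaminase, rose by 0.77 ± 0.25 (adjusted p 0.0203). Gpd1l, related to glycerol 3-phosphate dehydrogenase, fell, with a log2 fold change of −0.88 ± 0.24 (adjusted p 0.00553). The carrier Slc25a11 (0.48, adjusted p 0.0203) and the mitochondrial Gpd2 (−0.67, adjusted p 0.0323) were the other 2 calls. That list had 3 calls with library totals and 1 without WT resting 1. In glycogen metabolism 1 of 10 tested genes rose, the phosphoglucomutase Pgm2 by 0.95 ± 0.28 (adjusted p 0.0104), and in gluconeogenesis 1 of 2 fell, the mitochondrial Pck2 at −0.59 ± 0.22 (adjusted p 0.0410). Both of these lists had 0 calls with DESeq2.

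Of 14 tested genes that control glycolytic transcription or flux, 1 rose and 3 fell. Ikbke, a kinase that with TBK1 is known to promote early glycolysis in activated DCs, rose by 0.63 ± 0.24 (edgeR adjusted p 0.0474). Tbk1 (−0.66 ± 0.22), the mTORC1 subunit Rptor (−0.89 ± 0.29) and the glucose-sensing factor Mlxip (−0.95 ± 0.27) fell (adjusted p 0.0236, 0.0197 and 0.00822). Ikbke separated the states in DKO but overlapped in WT. DESeq2 called 1 gene of this list and the fit without WT activated 2 called 0. Of 10 tested HIF-1 targets outside glycolysis, 2 rose, the peptide hormone Adm by 2.76 ± 0.53 and the transferrin receptor Tfrc by 0.78 ± 0.25, and 1 fell, Ankrd37, with −1.45 ± 0.29 (edgeR adjusted p 0.000167, 0.0189 and 0.000291). Adm had 1 to 5 UMIs in resting libraries, and counts this low do not fix the size of its change. The 10 tested genes of that list had a median of −0.25. No gene of these 10 lists was called between genotypes or in the interaction.

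**Figure D5:**
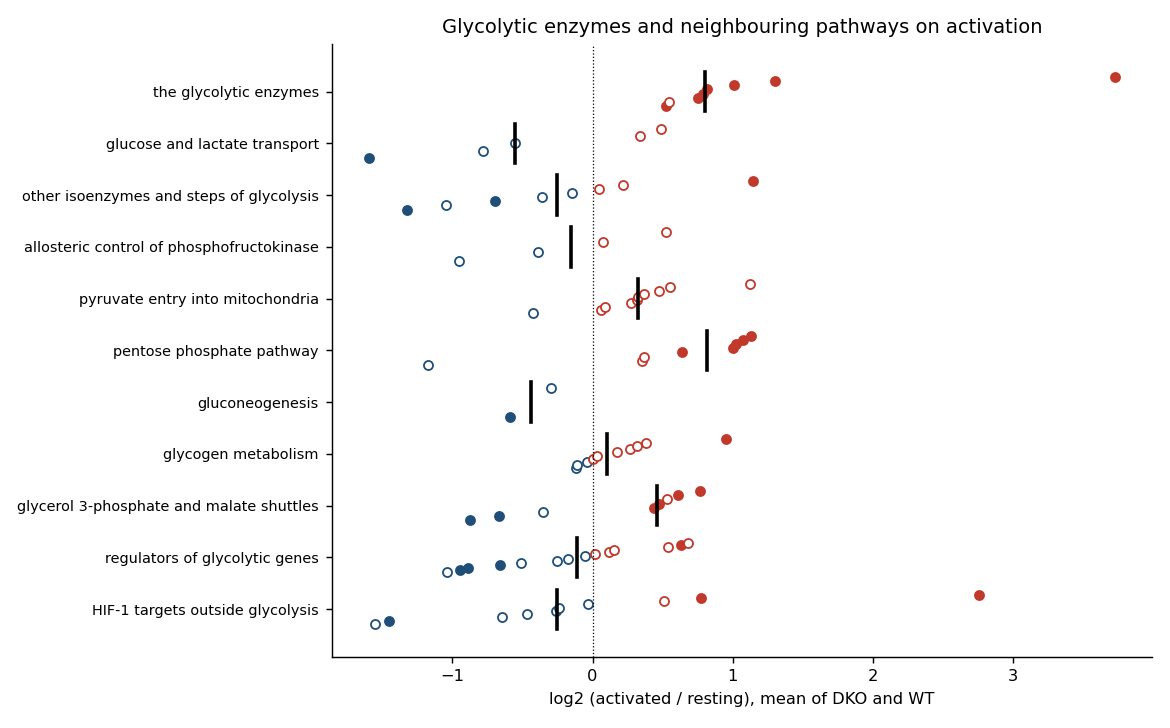
Log2 fold changes of activated over resting cells, as the mean of DKO and WT, for each tested gene of the glycolytic enzymes and of 10 neighbouring lists. Red points are above 0 and blue points below, filled points have an edgeR adjusted p under 0.05, and black bars are list medians. Medians to the right of 0 are those of the glycolytic enzymes (0.80), the pentose phosphate pathway (0.82), shuttles (0.46), pyruvate entry (0.32) and glycogen metabolism (0.10). To its left are transport (−0.55), gluconeogenesis (−0.44), HIF-1 targets (−0.25), other isoenzymes (−0.25), phosphofructokinase control (−0.16) and regulators (−0.11).

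Likeness to the mean profile of the tested enzymes was measured as the root mean square difference of centred log2 CPM over the 8 libraries, for 5498 genes whose average log2 CPM was 5 or more. The most alike were the RNA helicase gene Ddx1 (0.106), Myeov2 (0.107), the electron transfer flavoprotein gene Etfb (0.108), Siva1 (0.113) and the chaperonin gene Cct3 (0.122). Their log2 fold changes with activation lay between 0.97 and 1.09. Among the enzymes, Ldha was closest to the mean profile (0.0892) and Hk3 farthest from it (0.982). Each enzyme was compared with a mean that contains it. Hk3, with the largest change and very low counts at rest, has the same weight in that mean as each other enzyme. The median log2 fold change of the enzymes, 0.80, was below those of the 5 genes most alike.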

How the data were processed

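Per the labels' protocols, polyadenylated RNA was captured with oligo(dT) beads and sequenced by bulk MARS-seq. Per the submitters' processing notes, reads were handled with HTSeq, TopHat2, DESeq2, cutadapt (1.8.3) and bcl2fastq (2.17.1.14) on build mm10. Annotation, strand setting and UMI collapsing are not stated. The authors deposited UMI counts per gene, which were tested here, and their log2 fold changes and adjusted p-values, quoted only as theirs. A further 16 per-sample columns were not used. The lowest row maximum was 6 UMIs.

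Genes passing filterByExpr (8616, with 1796 left out) were fitted in edgeR 4.0.16 (R 4.3.3) by quasi-likelihood on TMM-scaled counts, with a coefficient per group over all 8 libraries (4 residual degrees of freedom). Its tests and intervals use more degrees of freedom than these, because the spread of each gene also borrows from that of other genes. "Called", "rose" and "fell" mean a Benjamini-Hochberg adjusted p under 0.05 over all tested genes. Genotype contrasts are DKO over WT, and SE is the log2 fold change over the square root of F. Alternatives were DESeq2 1.42.0, limma-voom (limma 3.58.1), other scalings and filters, fits of only the groups compared, and left-out libraries. The fit was tested on simulated data. Named pathway genes are up to 4 called per list by p, or the most abundant if 0 were called, and Rpe, Slc25a11, Gpd2, Hk1 and Pfkp fall outside that rule and were named after their values were seen. Members and lists were chosen with earlier results of these data known. Counts on the pathway lists under alternatives were added after seeing the data. Gene positions follow GENCODE M21.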

Additional observations from a re-analysis of the deposited data

How the results depend on the processing

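Over both genotypes the count of enzymes called stayed at 5 to 7 of 8 in each alternative (5 with library totals), and in DKO at 5 to 6. In WT it was 7 with limma-voom, in the fit of only the groups compared and without both libraries of lowest depth, against the reported 4, and it ran from 1 to 6 when single libraries were left out. The genotype and interaction contrasts gave 0 calls in each alternative. In WT, Hk3 was not called without WT resting 1 or WT activated 1, Ldha not without WT activated 1, and Pkm not with library totals or when any single WT library was left out. The summed ratio moved to 1.54 with library totals. The gap in hexokinase share was 33.9 points within DKO and 22.3 within WT. It was 26.3 to 30.6 when single libraries were left out, with p = 0.0571, the smallest exact permutation p then possible. The aldolase difference of −0.615 points turned to 0.705 within DKO. The cause of these changes was not tested. The pathway list counts moved by more than 1.5 times in 30 comparisons with an alternative and by less in 130. No paired analysis was possible because the labels give no replicate numbers shared between groups. Counts of under 20 UMIs per library limit what can be said of Gapdh and Pgk1.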
